A study of Mus musculus with 8 samples.

Results

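The expression of 72 cell cycle genes was compared in mouse embryonic stem (ES) cells before and after treatment with retinoic acid (RA). The genes were taken from the arrays by their names: cyclins with a letter from a to h and a number, numbered cyclin-dependent kinases (Cdks), the Cdk inhibitors except *Cdkn1c*, the E2f factors, the Mcm helicase genes, *Cdc6*, *Cdt1*, *Gmnn*, the pocket protein genes, the Cdc25 phosphatases, *Wee1*, the Polo and Aurora kinases, *Bub1*, *Bub1b* and *Cdc20*. They are 72 of the 36406 names on the arrays. All 72 are current RefSeq symbols. Each gene is represented by its brightest probe, taken by the mean log2 signal over all 8 arrays whatever their condition, and 23 of the 72 genes had several probes.

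The cells were E14Tg2A.4, a feeder-independent line of mouse ES cells, so all 8 samples came from the same line. No introduced allele is named for them. The untreated group held 4 biological replicates and the RA-treated group 4 more, collected after 72 h in 1 µM RA, the vitamin A derivative that drives ES cells out of self-renewal. Per the study's methods the RA medium lacked leukemia inhibitory factor (LIF), the cytokine that keeps ES cells undifferentiated, so the action of RA and the loss of LIF cannot be told apart here. RNA of each replicate was hybridized to an Agilent 1-colour array, and levels are given as the log2 of a probe's intensity over the 75th percentile of its array, so that 0 is the brightness of a probe at that percentile. Levels of different probes cannot be set against each other.

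The cell cycle is driven by Cdks, which act only when bound to a cyclin. D-type cyclins with Cdk4 or Cdk6, and cyclin E with Cdk2, phosphorylate the pocket proteins and thereby release E2f factors, which switch on the genes of DNA replication, and the Ink4 and Cip/Kip inhibitors oppose these kinases. Origins are licensed in G1 when Cdc6 and Cdt1 load the Mcm2 to Mcm7 helicase, and mitosis is run by cyclin B with Cdk1, the Polo and Aurora kinases and the spindle checkpoint. ES cells are known for a short G1 phase, for little D-type cyclin and Ink4 inhibitor, and for high Cdk2 activity, and the *Cdkn2a* locus is a classic target of Polycomb repression.

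Counts of spots above background were of similar size on all arrays and varied more among the untreated ones. Between 33629 and 37175 spots of an untreated array and between 35034 and 35780 spots of an RA-treated array were well above background, no spot was saturated, and 69 of the 72 genes were well above background on all 8 arrays. The remaining 3, *Ccne2*, *Ccnb3* and *Aurkb*, were not well above background on any array, so no level or change is given for them. The ES cell label was borne out by the pluripotency markers, of which 8 of 8 were above background on the untreated arrays, and after RA all 8 were lower (median log2 change -4.21). Their summed level, on the log2 scale, went from 8.81 to 9.29 on the untreated arrays to 5.51 to 6.90 after RA. At the same time 6 of 6 primitive endoderm markers, 4 of 4 smooth muscle markers and 4 of 5 fibroblast markers were higher, and the summed levels moved from 0.46 to 1.27 to 4.49 to 5.25 for primitive endoderm, from 1.11 to 1.97 to 7.99 to 8.87 for smooth muscle and from 0.06 to 0.87 to 4.92 to 5.61 for fibroblast. Most of these markers were above background on the untreated arrays too, except *Myh11*, of smooth muscle, which was so on 1 of 4, and the collagen gene *Col3a1*, on 3 of 4. Neural markers (1 higher and 1 lower of 6) and mesoderm markers (2 lower of 5) moved less, and the mesoderm gene *Mixl1* was not well above background on any array. The changes of the cell cycle genes were measured beside this shift in marker genes, and its part in them was not tested. In such bulk RNA, fewer cells of a type and less RNA per cell cannot be told apart.

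To show what regulatory sequence these genes carry, promoter windows reaching from 250 bases before to 50 bases after the RefSeq start (build GRCm38.p6) were searched on both strands for letters that E2f factors bind, TTTCGCGC, TTTGGCGC, TTTCCCGC and TTTGCCGC. A window was found for 57 of the 72 genes, and 8 of these had several. The letters stood in 15 of the 57 genes, or 26.3%, against 2.6% of all 27025 genes of the table. In the licensing and other Mcm genes they stood in 7 of 9, or 77.8%. The windows of *Mcm5* and *Mcm6*, which fell after RA and hold the letters, and that of *Mcm2*, which fell and holds none of them, are shown because these genes move together in the results. Each is written 5′ to 3′ on the gene's strand, with the E2f letters in capitals. In *Mcm5* a forward and a reverse match overlap, and in *Mcm6* a forward and a reverse match overlap and a further match follows.

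Mcm5 (chr8:75109259-75109558, plus strand): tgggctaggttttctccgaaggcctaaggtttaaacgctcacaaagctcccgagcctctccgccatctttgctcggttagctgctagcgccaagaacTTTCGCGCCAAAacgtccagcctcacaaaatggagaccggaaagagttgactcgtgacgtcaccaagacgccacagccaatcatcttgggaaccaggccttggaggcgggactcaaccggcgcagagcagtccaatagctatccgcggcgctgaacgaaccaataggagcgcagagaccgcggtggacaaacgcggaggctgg
Mcm6 (chr1:128359656-128359955, minus strand): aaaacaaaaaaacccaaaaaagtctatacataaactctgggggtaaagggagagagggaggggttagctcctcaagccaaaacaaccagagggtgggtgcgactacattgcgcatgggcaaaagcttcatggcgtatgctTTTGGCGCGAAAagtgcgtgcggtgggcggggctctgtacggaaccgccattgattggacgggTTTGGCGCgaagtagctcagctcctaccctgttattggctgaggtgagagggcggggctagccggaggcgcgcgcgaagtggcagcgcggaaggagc
Mcm2 (chr6:88898731-88899030, minus strand): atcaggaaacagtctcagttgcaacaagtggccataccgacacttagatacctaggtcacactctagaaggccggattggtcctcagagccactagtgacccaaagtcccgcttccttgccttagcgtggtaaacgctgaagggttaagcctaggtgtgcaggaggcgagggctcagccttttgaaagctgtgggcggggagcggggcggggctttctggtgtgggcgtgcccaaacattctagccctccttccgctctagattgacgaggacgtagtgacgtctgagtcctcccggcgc

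*Cdkn2a* is shown because it rose and has alternative starts, the upstream of which is used for p19Arf, an activator of p53, and the downstream for the Cdk inhibitor p16Ink4a. Only the window of the upstream start holds the E2f letters.

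Cdkn2a, upstream start (chr4:89294570-89294869, minus strand): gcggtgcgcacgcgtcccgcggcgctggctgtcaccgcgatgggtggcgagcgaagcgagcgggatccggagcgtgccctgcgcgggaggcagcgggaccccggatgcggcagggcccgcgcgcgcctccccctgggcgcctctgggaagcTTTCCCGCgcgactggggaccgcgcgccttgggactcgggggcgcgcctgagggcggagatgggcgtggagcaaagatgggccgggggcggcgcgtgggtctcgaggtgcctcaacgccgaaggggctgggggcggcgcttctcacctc
Cdkn2a, downstream start (chr4:89282143-89282442, minus strand): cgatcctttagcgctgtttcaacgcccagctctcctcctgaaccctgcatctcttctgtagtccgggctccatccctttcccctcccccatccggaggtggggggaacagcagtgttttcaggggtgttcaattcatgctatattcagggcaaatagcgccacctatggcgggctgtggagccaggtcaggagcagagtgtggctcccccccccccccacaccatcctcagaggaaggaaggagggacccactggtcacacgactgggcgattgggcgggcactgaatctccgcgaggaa

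Of the 72 cell cycle genes, 14 were higher and 19 were lower after RA, where a gene is called when its adjusted p is under 0.05 (limma, Benjamini-Hochberg over all 55681 probes) and its change is above 1.5-fold. The share of all probes called higher was 12.9% and the share called lower was 21.6%. Among probes well above background on all arrays these shares were 17.8% and 27.7%. The median change of the 69 measured genes was -0.20 on the log2 scale, and that of all probes above background was -0.23 (-0.28 over all probes). The groups did not overlap in 16 genes that were higher on every RA-treated array and in 20 that were lower. How many of all probes had no overlap was not counted, so these counts are no result about the cell cycle genes. All 33 called genes had the same sign on both slides of arrays. Since the calls came from these same arrays, this is no separate support.

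**Figure D1:**
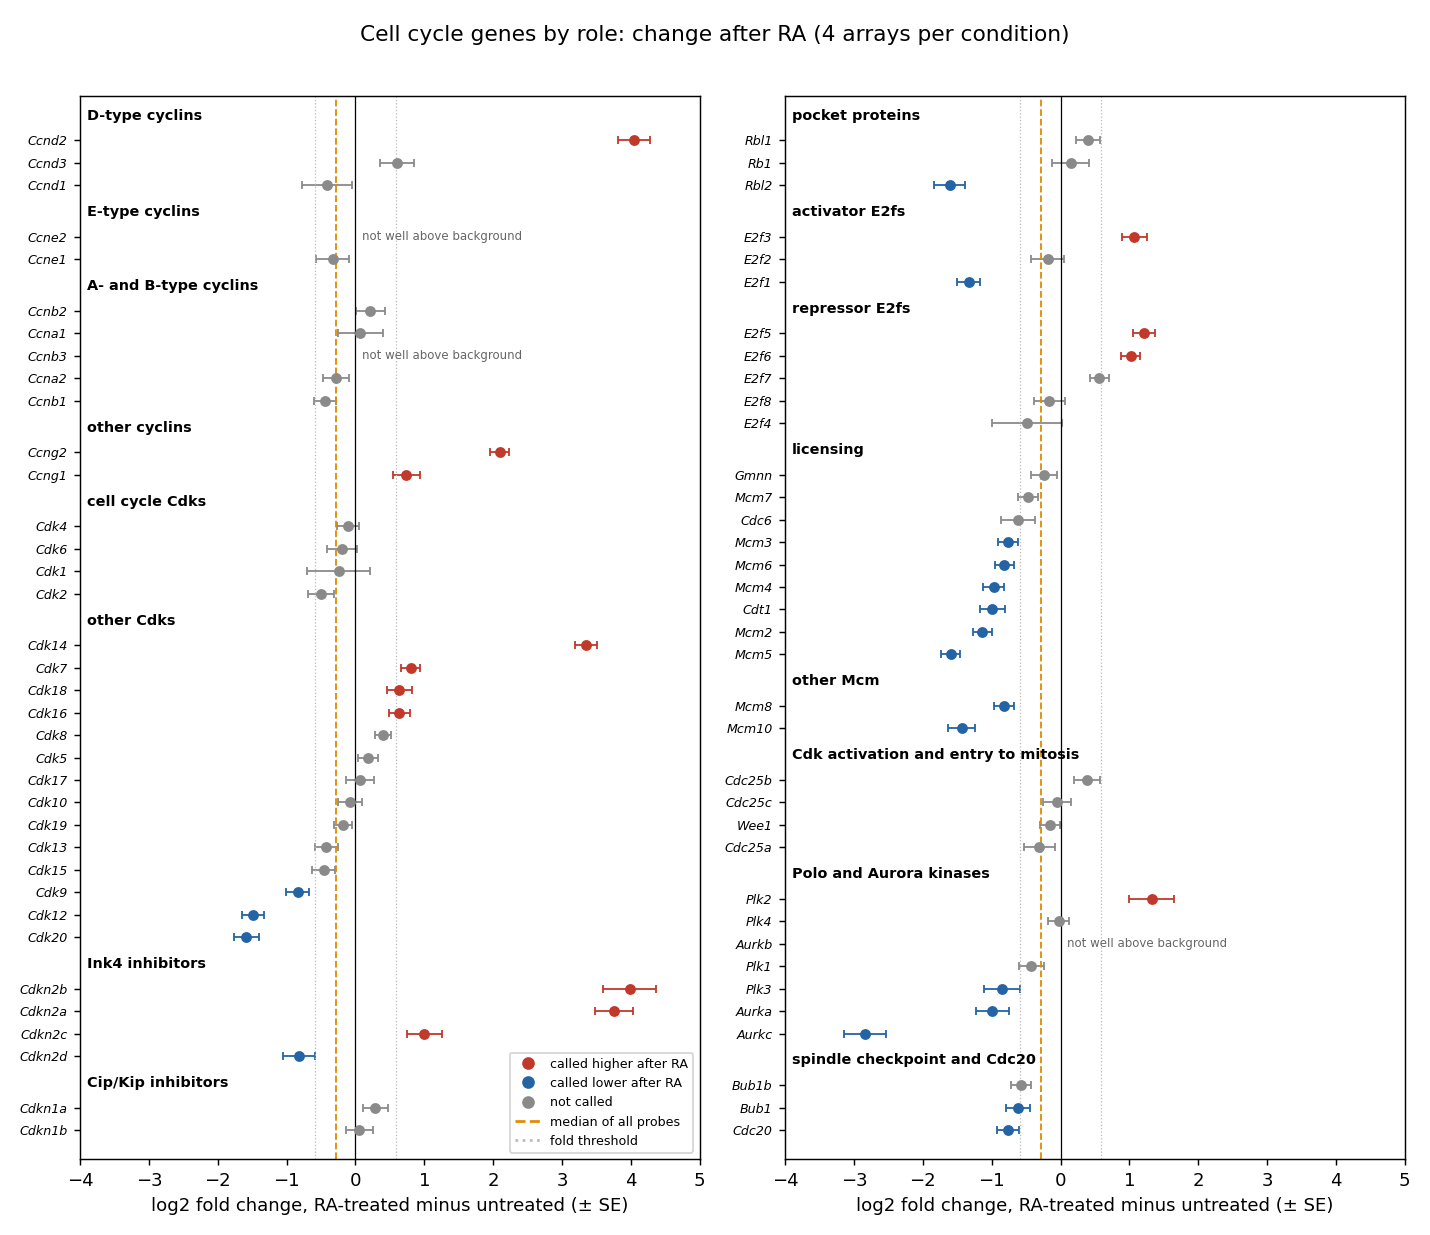
Log2 fold change (RA-treated minus untreated, horizontal axis) of each cell cycle gene, grouped by role, with the standard error of the fit (4 arrays per condition). Red points are the 14 genes called higher, blue points the 19 called lower and grey points those not called, the dashed line is the median of all probes at -0.28, and the dotted lines mark 1.5-fold. *Ccnd2*, *Cdkn2b*, *Cdkn2a* and *Cdk14* lie far to the right, and the licensing genes lie to the left of 0.

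The scaling of the arrays bears on this balance. With quantile normalization, which sets the median of all probes to -0.0026, 16 members were higher and 14 lower, so that the share of higher calls was 53.3% in place of 42.4%. All 14 genes called higher and 14 of the 19 called lower kept their call. The 5 that lost it, *Plk3*, *Mcm3*, *Mcm6*, *Bub1* and *Cdc20*, are given with their values under their roles.

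By response, the E2f letters stood in the promoters of 5 of 18 genes that fell (27.8%), in 2 of 12 that rose (16.7%) and in 8 of 27 that were not called (29.6%). Of the other letters searched, the cell cycle homology region (CHR, TTTGAA or TTCGAA), which genes of mitosis often carry, stood in 28.1% of the members and 21.7% of all genes, and the CCAAT box in 59.6% and 41.1%. A direct repeat of AGGTCA with 5 bases between, to which RA receptors bind, was in none of the 57 member promoters and in 0.0111% of all genes. A match is a description of the letters and not a binding site.

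Among the D-type cyclins, the partners of Cdk4 and Cdk6, only *Ccnd2* passed the test. *Ccnd2* measured -0.32, -0.34, -0.69 and -0.85 on the untreated arrays and 3.41, 2.95, 3.69 and 3.92 after RA. Its conditions lay more than 3 log2 units apart at every pair of arrays, and the change of 4.04 ± 0.24 (SE, n = 4 per condition, adjusted p = 6.42e-06, 16.5-fold) was, with that of *Cdkn2b*, among the largest rises of the members. The *Ccnd2* probe lies at chr6:127098696-127098755 of mm9. *Ccnd1* measured 2.59, 2.52, 1.49 and 2.37 untreated and 2.50, 2.04, 0.98 and 1.81 after RA. Replicate 3 was the lowest in both conditions, the groups overlapped, and the change of -0.41 ± 0.36 (adjusted p = 0.358) had a 95% interval from -1.23 to 0.40. *Ccnd3* measured 4.55, 4.86, 3.76 and 4.40 untreated and 5.15, 5.15, 4.67 and 5.01 after RA. All RA-treated arrays but replicate 3 were above every untreated array, and the change of 0.60 ± 0.24 missed the threshold (adjusted p = 0.082). *Ccnd3* was called higher in 6 of 8 alternatives, with normexp, quantile normalization, both together, the authors' values, the mean of its probes and the replicate block, at 0.60 to 0.81 (adjusted p = 0.0223 with quantile normalization and 0.042 with the block). The authors' values and normexp with quantile normalization gave nearly the same change (0.785 and 0.786), so the alternatives are not independent. The other *Ccnd3* probe passed at 0.66 (adjusted p = 0.0256).

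Neither the E-type nor the A- and B-type cyclins passed. *Ccne1*, which activates Cdk2 at the start of S phase, measured 5.16, 5.03, 4.33 and 4.94 untreated and 4.60, 4.97, 4.17 and 4.38 after RA. The groups overlapped, and the change was -0.33 ± 0.24 (adjusted p = 0.27, 95% interval -0.88 to 0.21). *Ccna2*, the cyclin of S phase and G2, measured 4.24, 3.82, 3.44 and 3.86 untreated and 3.71, 3.63, 3.39 and 3.50 after RA. Untreated replicate 3 lay among the treated arrays, and the change was -0.28 ± 0.19 (adjusted p = 0.236, 95% interval -0.71 to 0.14). *Ccnb1*, the mitotic cyclin, measured 5.04, 4.82, 4.57 and 5.08 untreated and 4.43, 4.58, 4.32 and 4.43 after RA. RA replicate 2 exceeded the lowest untreated array by a small margin, and the change of -0.44 ± 0.16 missed the threshold (adjusted p = 0.0563). The 2 dimmer *Ccnb1* probes were at 0.16 and 0.04, and the mean of its 3 probes at -0.08. *Ccnb2* (0.22) and the germ cell cyclin *Ccna1* (0.07) had small changes that were not called.

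Both G-type cyclins on the list, which are atypical cyclins linked to cell cycle arrest, were higher (17.8% higher among all probes above background). With only 2 genes this is no result about the role. *Ccng2* measured -3.81, -3.83, -3.93 and -3.70 untreated and -1.65, -1.93, -1.60 and -1.71 after RA. Within each condition its arrays differed little and the conditions were far apart, with a change of 2.10 ± 0.14 (adjusted p = 1.09e-05, 4.28-fold). With normexp background correction the change of *Ccng2* was smaller, at 1.30, and it was called in each alternative. *Ccng1*, a target of p53, rose by 0.74 ± 0.20 (adjusted p = 0.0171). Without RA replicate 1 the call of *Ccng1* was lost (adjusted p = 0.0513).

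The Cdks that drive the cycle did not pass. *Cdk4* measured 6.79, 6.61, 6.21 and 6.68 untreated and 6.40, 6.39, 6.56 and 6.54 after RA, and its change of -0.10 ± 0.16 (adjusted p = 0.62) had a 95% interval from -0.47 to 0.26. *Cdk6* measured -2.71, -3.50, -3.58 and -2.99 untreated and -3.61, -3.48, -3.33 and -3.14 after RA, with a change of -0.20 ± 0.22 (adjusted p = 0.491, 95% interval -0.71 to 0.32). So neither partner of the D-type cyclins differed beyond the spread of the arrays. *Cdk2*, the partner of cyclins E and A, measured 1.10, 1.09, 0.50 and 1.30 untreated and 0.58, 0.55, 0.45 and 0.40 after RA. All its untreated arrays but replicate 3 lay above all treated arrays, and the change of -0.50 ± 0.19 missed the threshold (adjusted p = 0.0662). Without untreated replicate 3 *Cdk2* was called lower, at -0.67 (adjusted p = 0.00594). *Cdk1*, the mitotic kinase, measured 2.52, 1.19, 1.74 and 1.08 untreated and 2.01, 1.28, 0.22 and 2.03 after RA. The arrays of this probe scattered widely in both conditions, and its change was -0.24 ± 0.46 (adjusted p = 0.68). A dimmer *Cdk1* probe with less scatter was called lower, at -0.74 ± 0.19 (adjusted p = 0.0133), and the third was not well above background.

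Among the 14 other Cdks, 4 were higher and 3 were lower, which is near the 17.8% higher and 27.7% lower of all probes above background and is no result about these kinases as a group. *Cdk14*, a kinase that pairs with cyclin Y and acts in Wnt signalling, measured -1.86, -1.76, -1.25 and -1.61 untreated and 1.75, 1.62, 1.76 and 1.78 after RA. The treated arrays were nearly equal, and the rise of 3.35 ± 0.16 (adjusted p = 3.33e-06, 10.2-fold) was matched by the other probe at 3.36. *Cdk20*, a kinase linked to cilia, measured 1.59, 1.31, 1.09 and 1.59 untreated and -0.49, -0.07, 0.06 and -0.27 after RA. No array of one condition reached the other, and *Cdk20* fell by 1.59 ± 0.18 (adjusted p = 0.000187, 3.01-fold). The transcription kinases *Cdk12* and *Cdk9*, which phosphorylate RNA polymerase II, also fell, *Cdk12* by 1.49 ± 0.16 and *Cdk9* by 0.84 ± 0.16. All 3 probes of *Cdk9* were called lower, and of the 3 of *Cdk12* 2 were. *Cdk7*, part of the Cdk-activating kinase, rose by 0.80 ± 0.14 (adjusted p = 0.00182), but its other probe was at -0.54 and not called, and the mean of both probes, at 0.13, was not called. *Cdk16* and *Cdk18*, of the PCTAIRE family, rose by 0.64 each, just past the fold threshold. With the replicate block *Cdk18* was not called (adjusted p = 0.0574), nor was it without untreated replicate 4 (0.58) or RA replicate 1 (0.54), and *Cdk16* was not called without untreated replicate 1 (0.53). *Cdk8*, a kinase of the Mediator complex, had an adjusted p of 0.0275 but a change of 0.40. The other 6 Cdks of this group, *Cdk5*, *Cdk10*, *Cdk13*, *Cdk15*, *Cdk17* and *Cdk19*, had changes from -0.46 to 0.18 that were not called.

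Of the 4 Ink4 inhibitors 3 were higher and 1 was lower, and neither of the 2 Cip/Kip inhibitors was called (17.8% higher and 27.7% lower among all probes above background). *Cdkn2a* measured -0.04, 1.04, 0.01 and 0.19 untreated and 4.14, 3.61, 4.19 and 4.30 after RA. Untreated replicate 2 was the highest of its group and RA replicate 2 the lowest of its group, and they were still far apart. *Cdkn2a* rose by 3.76 ± 0.27 (adjusted p = 1.66e-05, 13.5-fold), and its other probe rose by 3.67. Which of its transcripts these probes report was not determined here. *Cdkn2b*, which encodes p15Ink4b, measured -1.91, -2.49, -1.59 and -2.81 untreated and 2.56, 1.71, 0.90 and 1.98 after RA. The spread within each condition was wide but left a clear gap, and *Cdkn2b* rose by 3.99 ± 0.38 (adjusted p = 6.87e-05, 15.8-fold), with its other probe at 3.63. The probes of both genes lie at chr4:88920405-88920464 and chr4:88952276-88952335 of mm9, 31.8 kb apart.

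The Ink4 genes outside that locus changed less. *Cdkn2c*, which encodes p18Ink4c, measured -3.70, -3.67, -4.81 and -3.84 untreated and -2.92, -3.03, -2.99 and -3.09 after RA. It rose by 1.00 ± 0.25 (adjusted p = 0.0135), untreated replicate 3 stood apart below the others, and with normexp background correction the change of 0.51 was under the fold threshold. *Cdkn2d*, which encodes p19Ink4d, measured 2.87, 2.93, 1.93 and 2.36 untreated and 1.73, 1.65, 1.84 and 1.62 after RA. It fell by 0.81 ± 0.23 (adjusted p = 0.0222), with a narrow gap between untreated replicate 3 and RA replicate 3. Leaving out untreated replicate 1 or 2 or RA replicate 2 or 4 took the *Cdkn2d* call away (adjusted p from 0.0519 to 0.0582).

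*Cdkn1a*, the p53 target that encodes p21, measured 2.91, 2.38, 3.06 and 2.60 untreated and 2.89, 2.97, 3.29 and 2.96 after RA. The groups overlapped, the change was 0.29 ± 0.19 (adjusted p = 0.227, 95% interval -0.14 to 0.72), it was -0.06 on one slide and 0.64 on the other, and its dimmer probes were at -0.63 and -0.57, which put the mean of its probes at -0.30. *Cdkn1b*, which encodes p27, measured 1.88, 1.64, 1.22 and 1.56 untreated and 1.63, 1.26, 1.74 and 1.89 after RA, with fully overlapping groups and a change of 0.05 ± 0.20 (adjusted p = 0.832, 95% interval -0.39 to 0.50). A dim *Cdkn1b* probe, above background on 7 of 8 arrays, was at 0.65 ± 0.25 (adjusted p = 0.0715), and the mean of both probes at 0.35.

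**Figure D2:**
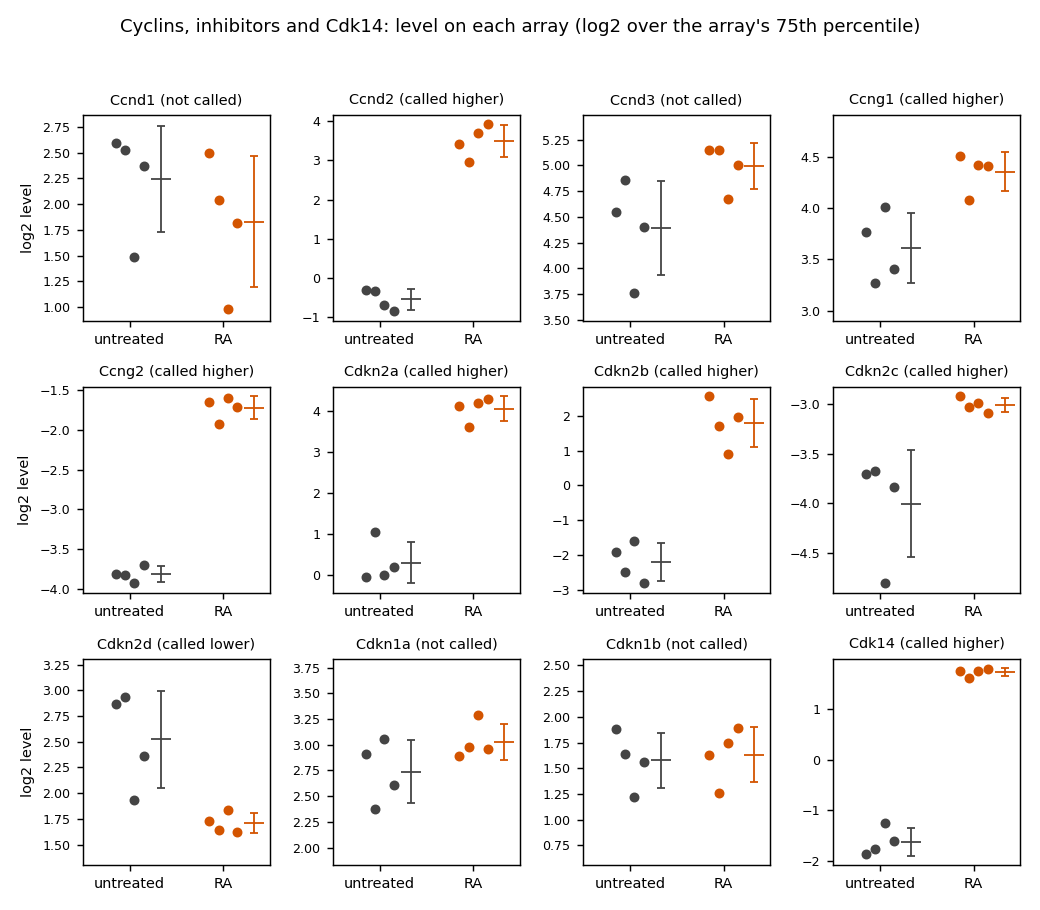
Level of each gene on the 4 untreated (dark) and 4 RA-treated (orange) arrays, as log2 over the array's 75th percentile, with replicates 1 to 4 from left to right and the mean ± SD beside them. Each panel has its own vertical axis. *Ccnd2*, *Ccng2*, *Cdkn2a*, *Cdkn2b* and *Cdk14* show a wide gap between conditions, and *Ccnd1*, *Cdkn1a* and *Cdkn1b* overlap.

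Of the 3 pocket proteins, which hold E2f factors in check, 1 was lower and 2 were not called, beside 27.7% lower among all probes above background. *Rbl2*, which encodes p130, measured -1.61, -1.94, -1.32 and -2.27 untreated and -3.32, -3.69, -3.19 and -3.38 after RA. Every untreated array was above every treated array, and *Rbl2* fell by 1.61 ± 0.22 (adjusted p = 0.00054, 3.05-fold). With normexp and quantile normalization together *Rbl2* fell by 1.00, and it was called in each alternative. *Rb1* measured 0.88, 0.58, 1.83 and 0.76 untreated and 1.07, 1.12, 1.36 and 1.08 after RA. Untreated replicate 3 was above all treated arrays and the other untreated arrays below them, with a change of 0.14 ± 0.26 (adjusted p = 0.669, 95% interval -0.46 to 0.75). *Rbl1*, which encodes p107, measured 0.65, 0.71, 0.43 and 0.88 untreated and 0.95, 0.79, 1.27 and 1.25 after RA. Its change of 0.40 ± 0.17 was not called (adjusted p = 0.0973), and its dimmer probe was at -0.55 (adjusted p = 0.0619), so its probes had opposite signs and neither passed.

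Of the 8 E2f factors 3 were higher and 1 was lower, beside 17.8% higher and 27.7% lower among all probes above background. *E2f1*, an activator of replication genes, measured 2.54, 2.47, 2.28 and 2.81 untreated and 1.03, 1.42, 1.28 and 1.04 after RA. No array of one condition reached the other, and *E2f1* fell by 1.33 ± 0.17 (adjusted p = 0.000306, 2.52-fold). *E2f3*, also an activator, measured 1.79, 1.43, 0.98 and 1.32 untreated and 2.45, 2.41, 2.44 and 2.50 after RA. The treated arrays were nearly equal and above all untreated ones, and *E2f3* rose by 1.07 ± 0.18 (adjusted p = 0.00168), though its dimmer probe was at 0.42 and not called. *E2f5*, a partner of p130, measured -0.13, -0.12, 0.31 and 0.16 untreated and 1.23, 1.09, 1.35 and 1.39 after RA, without overlap. *E2f5* rose by 1.21 ± 0.16 (adjusted p = 0.000364, 2.31-fold). *E2f6*, a repressor found in a Polycomb complex, rose by 1.02 ± 0.14 (adjusted p = 0.000487). *E2f7*, an atypical repressor, had an adjusted p of 0.0132 with a change of 0.57, under the fold threshold, and was called with quantile normalization at 0.68. *E2f2* (-0.18), *E2f4* (-0.49, with a wide SE of 0.51) and *E2f8* (-0.16) were not called.

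Replication licensing was the role with the most falls: 6 of its 9 genes were lower and none was higher, beside 27.7% lower and 17.8% higher among all probes above background. The median change of the 9 was -0.81, against -0.23 for those probes. With quantile normalization 4 of the 9 were lower. Of the 6 helicase subunits *Mcm2* to *Mcm7*, 5 were called lower and all 6 had conditions that did not overlap, with changes from -0.47 to -1.60. The share of all probes without overlap was not counted. *Mcm5* measured 6.14, 5.98, 5.96 and 6.24 untreated and 4.35, 4.49, 4.55 and 4.53 after RA. These arrays were tight within each condition, and *Mcm5* fell by 1.60 ± 0.13 (adjusted p = 3.5e-05, 3.03-fold). *Mcm2* fell by 1.13 ± 0.13, *Mcm4* by 0.97 ± 0.15, *Mcm6* by 0.81 ± 0.14 and *Mcm3* by 0.76 ± 0.15, while the other *Mcm3* probe, at -0.72 ± 0.31, was not called. Their adjusted p-values ran from 0.000197 for *Mcm2* to 0.00382 for *Mcm3*. *Mcm7* had a change of -0.47 ± 0.15 (adjusted p = 0.0336), under the fold threshold. With quantile normalization the changes of *Mcm3* (-0.51) and *Mcm6* (-0.56) were also under the fold threshold, with adjusted p-values of 0.00132 and 0.000549, and *Mcm7* was at -0.23 with an adjusted p of 0.0927. With the replicate block the adjusted p of *Mcm7* was 0.0958.

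*Cdt1*, which loads the helicase together with Cdc6, measured 6.12, 5.76, 5.39 and 5.83 untreated and 4.61, 4.73, 4.91 and 4.89 after RA. No array of one condition reached the other, and *Cdt1* fell by 0.99 ± 0.18 (adjusted p = 0.00243). *Cdc6* measured 1.67, 1.15, 0.64 and 0.88 untreated and 0.69, 0.61, 0.05 and 0.52 after RA. RA replicate 1 exceeded untreated replicate 3, and the change of -0.62 ± 0.25 missed the threshold (adjusted p = 0.0833). With the replicate block *Cdc6* was called lower (adjusted p = 0.041), and so it was without untreated replicate 3 (adjusted p = 0.0404). *Gmnn*, which encodes geminin, the inhibitor of Cdt1, had a change of -0.24 ± 0.19 (adjusted p = 0.323, 95% interval -0.67 to 0.20).

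Both other Mcm genes were called lower, beside 27.7% lower among all probes above background. With only 2 genes this is no result about the role. *Mcm10*, which acts when the helicase is started, measured 5.09, 4.79, 4.28 and 4.74 untreated and 3.18, 3.54, 3.17 and 3.28 after RA. The lowest untreated array, replicate 3, was still above the highest treated one, and *Mcm10* fell by 1.43 ± 0.20 (adjusted p = 0.000475, 2.7-fold). *Mcm8*, which acts with Mcm9 in recombination, fell by 0.82 ± 0.14 (adjusted p = 0.00167), and its other probe fell by 1.00.

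**Figure D3:**
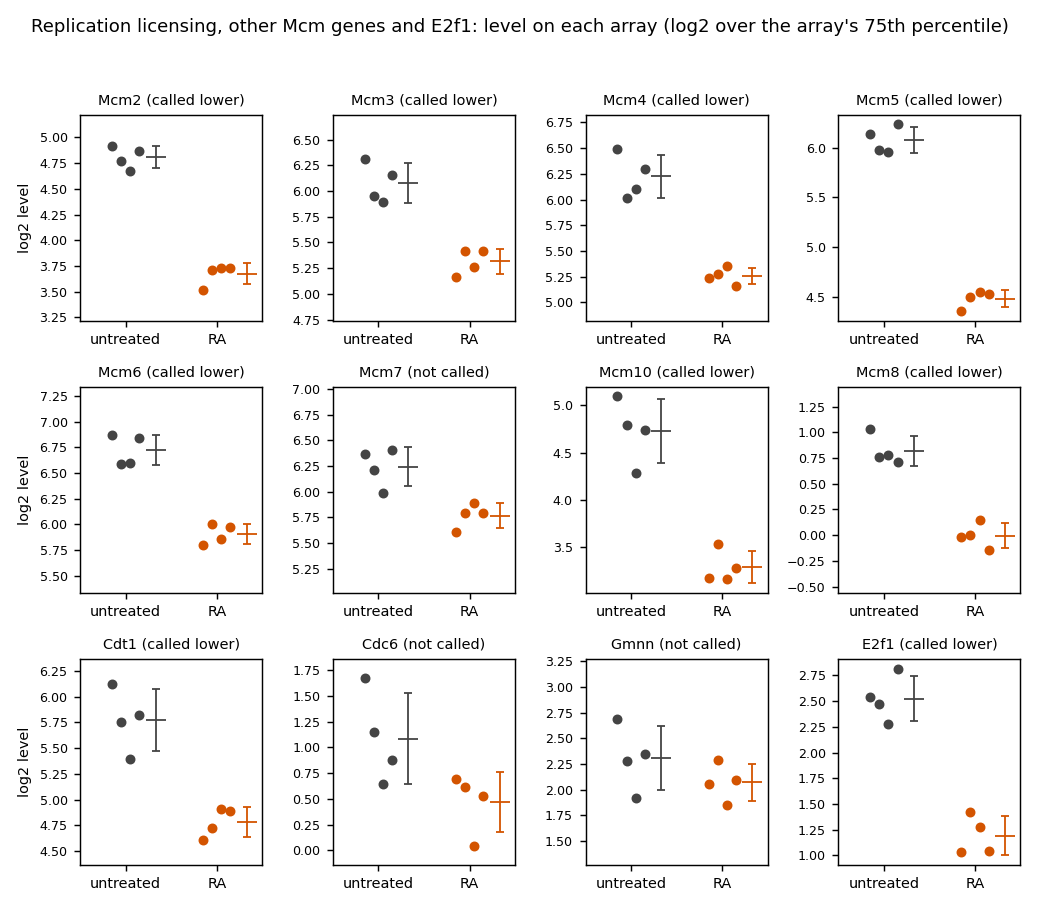
Level of the licensing genes, *Mcm8*, *Mcm10* and *E2f1* on the 4 untreated (dark) and 4 RA-treated (orange) arrays, as log2 over the array's 75th percentile, with replicates 1 to 4 from left to right and the mean ± SD beside them. Each panel has its own vertical axis. The conditions are apart in *Mcm2* to *Mcm7*, *Mcm8*, *Mcm10*, *Cdt1* and *E2f1*, and overlap in *Cdc6* and *Gmnn*.

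Genes related to licensing were read as separate lists, and of all probes above background 27.7% were called lower and 17.8% higher. In origin recognition and firing 6 of 14 genes were lower and 0 higher (median -0.56), with *Orc5*, a subunit of the origin recognition complex, at -1.27 ± 0.14. In DNA synthesis of S phase 8 of 22 were lower and 0 higher (median -0.56), with *Fen1*, the flap endonuclease, at -1.32 ± 0.17. Among the DP, MuvB and B-Myb partners of the E2f and pocket proteins 3 of 10 were lower and 0 higher (median -0.25), and *Mybl2*, which encodes B-Myb, fell by 2.78 ± 0.21 (adjusted p = 2.17e-05). Among other Cdk partners and turnover factors 4 of 16 were lower and 0 higher (median -0.37), with *Ccnf* at -0.91 ± 0.20. The shares called lower in the last 2 of these lists, 3 of 10 and 4 of 16, were near that of all probes above background, and are no result about these genes.

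The regulators of entry to mitosis did not pass the test. *Cdc25a* (-0.31), *Cdc25b* (0.38) and *Cdc25c* (-0.05), the phosphatases that activate Cdks, and *Wee1* (-0.16), the kinase that restrains Cdk1, had adjusted p-values from 0.147 to 0.852.

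Of the 7 Polo and Aurora kinases 1 was higher and 3 were lower, and with so few genes this is not far from the 17.8% higher and 27.7% lower of all probes above background. *Aurkc*, the Aurora kinase best known from meiosis and the early embryo, measured 4.22, 3.33, 2.97 and 3.79 untreated and 0.44, 1.11, 1.02 and 0.37 after RA. The conditions were well apart, the fall of 2.84 ± 0.30 (adjusted p = 0.000114, 7.17-fold) was the largest fall among the members, and the other probe fell by 2.94. *Aurka*, which matures centrosomes and builds the spindle, fell by 0.99 ± 0.24 (adjusted p = 0.0111). *Plk2*, a stress-induced Polo kinase, measured 1.03, 0.26, 1.86 and 0.66 untreated and 2.61, 2.10, 1.99 and 2.40 after RA. Untreated replicate 3 came close to the treated arrays, and *Plk2* rose by 1.32 ± 0.33 (adjusted p = 0.0118, 2.5-fold). *Plk3* was called lower at -0.85 ± 0.26 (adjusted p = 0.0319), but RA replicate 2 (2.38) overlapped the untreated arrays, and the call was lost with quantile normalization (adjusted p = 0.081) and in 5 of the 8 fits that left out 1 array. *Plk1*, the main mitotic Polo kinase, had a change of -0.42 ± 0.18 (adjusted p = 0.0925), and *Plk4*, which duplicates centrioles, of -0.03 ± 0.16 (adjusted p = 0.891).

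In the spindle checkpoint, *Cdc20*, the activator of the anaphase-promoting complex, measured 6.22, 6.10, 5.88 and 6.25 untreated and 5.39, 5.60, 5.21 and 5.22 after RA. The conditions were apart, and *Cdc20* fell by 0.76 ± 0.16 (adjusted p = 0.0045), though its change of -0.52 with quantile normalization was under the fold threshold. *Bub1*, a checkpoint kinase, was called lower at -0.62 ± 0.18 (adjusted p = 0.0245), but RA replicate 2 (2.88) just exceeded untreated replicate 3 (2.87). The *Bub1* change was -0.47 with quantile normalization, and 6 of the 8 fits that left out 1 array lost the call. *Bub1b*, which encodes BubR1, had conditions that did not overlap and an adjusted p of 0.0143 with a change of -0.57, under the fold threshold. Other spindle checkpoint and anaphase-promoting complex genes, from a list of 26, were lower in 10 cases and higher in 3 (median -0.35; 27.7% lower and 17.8% higher among all probes above background), with *Fbxo5*, an inhibitor of that complex, at -1.85 ± 0.19 and the kinetochore gene *Zwint* at 0.94 ± 0.21.

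**Figure D4:**
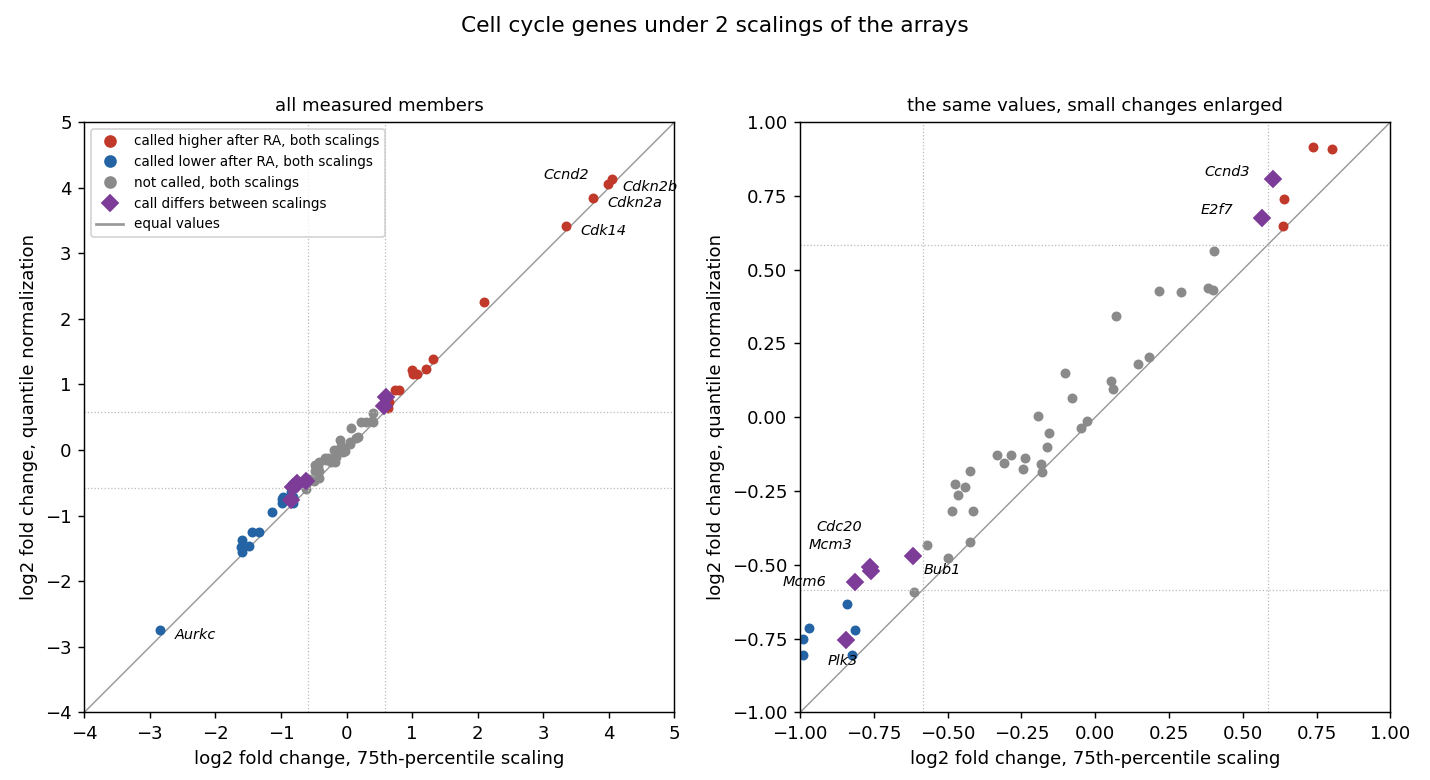
Log2 fold change of the 69 measured cell cycle genes with the arrays scaled to their 75th percentile (horizontal axis) and with quantile normalization (vertical axis), for all values on the left and the small changes on the right. The diagonal marks equal values, the dotted lines 1.5-fold, and purple diamonds the genes whose call differs: *Ccnd3* and *E2f7* are called only with quantile normalization, and *Plk3*, *Mcm3*, *Mcm6*, *Cdc20* and *Bub1* only with the 75th percentile.

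Called genes among general readouts of growth and of p53 are given beside the 27.7% lower and 17.8% higher of all probes above background. Of 10 proliferation markers 3 were lower and 0 higher (median -0.52). Among them *Mki67* was at -0.59 ± 0.13 (adjusted p = 0.00751), just past the fold threshold, and *Cenpf*, a kinetochore protein made in G2, fell by 1.23 ± 0.18. Of 14 genes of p53 and its classic targets 4 were lower and 2 higher (median -0.29). *Trp53* itself fell by 1.39 ± 0.13, the apoptosis gene *Pmaip1* fell by 1.53 ± 0.25, and *Perp*, a gene of cell junctions and apoptosis, rose by 1.36 ± 0.41 (adjusted p = 0.0296).

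The arrays of a condition did not spread evenly over these genes. Untreated replicate 3 was the lowest of the 4 untreated arrays in 39 of the 69 measured members (56.5%), against 37.1% of all probes above background, and untreated replicate 1 was the highest in 33 (47.8%), against 34.3%. The median distance of a member on untreated replicate 3 from the mean of the other 3 untreated arrays was -0.27, and on untreated replicate 1 it was 0.23. After RA these medians lay between -0.01 and 0.03. With quantile normalization untreated replicate 3 was the lowest in 33 of the 69 members, and the share of all probes was not taken under that scaling. On the same array the summed level of the pluripotency markers was 8.81, and those of the primitive endoderm (0.46), neural (2.60) and mesoderm (-1.28) markers were also the lowest of the untreated arrays. Its smooth muscle sum of 1.92 lay between 1.97 on untreated replicate 4 and 1.30 and 1.11 on replicates 1 and 2, and its fibroblast sum of 0.75 between 0.87 on untreated replicate 2 and 0.12 and 0.06 on replicates 4 and 1. The part this has in the members' values was not tested. Without untreated replicate 3, 14 members were higher and 21 lower, and these included all 14 genes called higher and 18 of the 19 called lower with all arrays. The exception was *Plk3*.

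**Figure D5:**
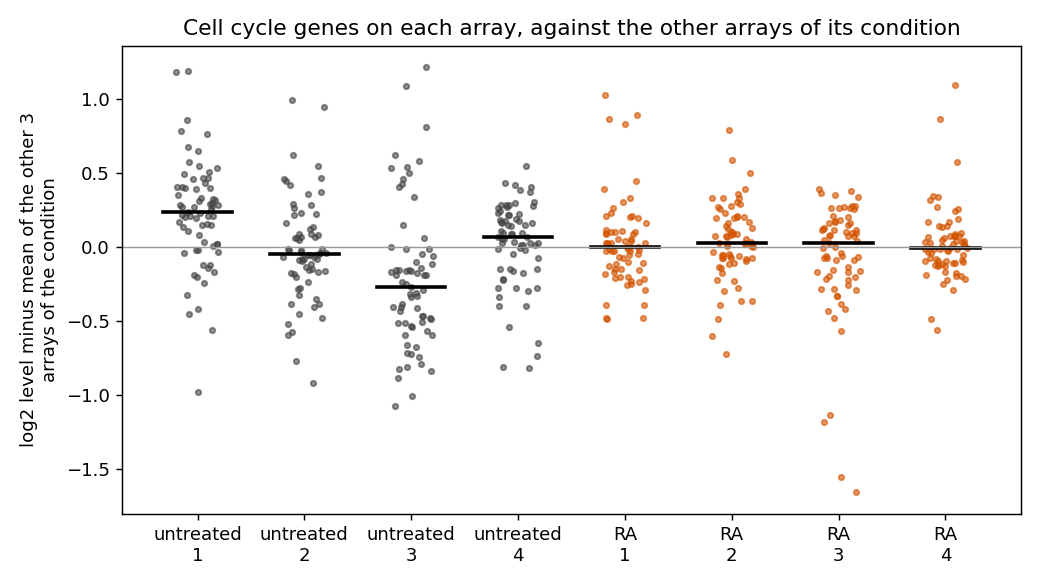
Difference between the log2 level of each measured member on an array and its mean on the other 3 arrays of the condition (vertical axis), for the 4 untreated (dark) and 4 RA-treated (orange) arrays. Each point is 1 gene and each bar the median, which is -0.27 for untreated replicate 3 and 0.23 for untreated replicate 1.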

How the data were processed

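RNA of 4 untreated and 4 RA-treated samples of E14Tg2A.4 ES cells was measured. Scanner files from Agilent Feature Extraction (version 10.7.3.1) were deposited, whose processed intensity per spot is corrected for background but not normalized between arrays, and flags per spot that serve as a score of 0 or 1. Another deposited table holds log2 values of these spots, equally distributed on all 8 arrays, and served as an alternative. Samples were grouped by their labels. The members, the gene lists and the tests were chosen with earlier results of these data known.

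Processed intensities were put on the log2 scale in R (version 4.3.3), the 75th percentile of each array was subtracted, the 3671 control spots and outlier spots left out and the spots of a probe averaged, which left 55681 probes. The comparison used limma (version 3.58.1; lmFit and eBayes), two-sided, with Benjamini-Hochberg adjustment over all probes. A probe was called at an adjusted p under 0.05 and a change above 1.5-fold, the thresholds of the study's methods. A gene takes its brightest probe over the 8 arrays, and 3 dim members have no reported change. Steps were tested on simulated data. The number of arrays limits the precision. All members could be named, and values on every array were given for the D-type cyclins, *Ccne1* (not the dim *Ccne2*), *Ccna2*, *Ccnb1*, *Cdk1*, *Cdk2*, *Cdk4*, *Cdk6*, the Ink4 and Cip/Kip inhibitors, the pocket proteins, *E2f1* and the called member of each role with the largest change in either direction. Values on every array of *Cdt1* and *Cdc6* were added after they had been seen, as were *Mki67* and *Trp53* of the other lists.

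Replicates carry the numbers 1 to 4 in each condition. Over 27504 probes above background the deviations of same-numbered arrays from their condition mean correlated at 0.186, 0.189, 0.104 and 0.152, and the highest correlations of each with an array of another number were 0.142, 0.0369, 0.0858 and 0.129. By these values equal numbers were read as pairs. The main fit has no block, and the fit with the replicate block is given where it changes a call. Each of 2 slides held 2 arrays of each condition, and all were scanned on 1 day. Alternatives were the scaling, the background correction (normexp, offset 50), the authors' values, a filter on dim probes, blocks for replicate and slide, the mean of all probes, the fold threshold and leaving out each array. Probe positions are on mm9, as the scanner files give them, and promoters are from RefSeq on GRCm38.p6. Exon annotation of the probes was not used here.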

Additional observations from a re-analysis of the deposited data

Results flagged for a closer look

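In 7 of 144 sets of 4 arrays (72 genes in each condition) a single array lay apart from the other 3 by Dixon's criterion, where chance alone gives about 7.2. *Cdc25a* was at 3.4843 on RA replicate 2, against 3.27 to 3.30 on the other treated arrays. *Cdkn2c* was at -4.8122 on untreated replicate 3, against -3.84 to -3.67. *Mcm2* was at 3.5218 on RA replicate 1, against 3.71 to 3.73. *Cdk5* was at 0.9889 on untreated replicate 1, against 0.52 to 0.59. *Cdk7* was at 2.2011 on untreated replicate 4, against 1.90 to 1.95. *Rb1* was at 1.3598 on RA replicate 3, against 1.07 to 1.12. *Bub1b* was at 3.4477 on untreated replicate 4, against 3.02 to 3.04. Of these genes *Cdkn2c*, *Mcm2* and *Cdk7* were called, and each kept its call in all 8 fits that left out 1 array.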

How the results depend on the processing

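No called member changed sign in any alternative. Of the 14 genes called higher 9, and of the 19 called lower 13, kept their call in all 8 alternatives that give a value per gene and all 8 fits that left out 1 array, and of the 39 uncalled genes 33 stayed uncalled. With a threshold of 2-fold 10 members were higher and 8 were lower. The shares of all probes at 2-fold were not taken, so these counts have no like comparison. Leaving out 1 array gave 12 to 15 higher and 16 to 21 lower. Besides the 16 and 14 with quantile normalization, normexp with quantile normalization gave 17 higher and 14 lower, and the authors' values 17 and 15, so that the share of higher calls was 54.8% and 53.1%. Among all probes 7196 were higher and 12044 lower, and with quantile normalization 8152 and 8704. In the fit with the replicate block 14 were higher and 20 lower, and apart from *Ccnd3*, *Cdc6* and *Cdk18* it changed no call. *Cdk8* was called with normexp and quantile normalization (0.59) and with the authors' values (0.59), and *Bub1b* without untreated replicate 1, 2 or 3 or RA replicate 2 (-0.59 to -0.61). *E2f7* was called without untreated replicate 1 or RA replicate 3 or 4 (0.59 to 0.64), and *Ccnd3* without untreated replicate 2 (0.76). The cause of these changes was not tested. Signal over background limits the 3 dim genes, for which no change could be read.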
